A study of Mus with 4 samples.

Results

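Klf2, Klf4, Klf6, Nos3 and Edn1 are 5 genes grouped here for their part in the response of endothelium to the flow of blood. Their messenger RNA was read by RNA-seq in LSECs, the sinusoidal endothelial cells of the liver, whose open pores let plasma pass to the hepatocytes. The genes were picked by their Ensembl identifiers, as a set of flow-responsive transcription factors and vasoactive genes, and make up 5 of the 54532 genes in the deposited count table. The libraries were 2 from P1KO mice, in which Pofut1 was deleted in the endothelium, and 2 from control mice (CTL). All the mice, controls included, had received carbon tetrachloride (CCl4), a toxin that injures hepatocytes and leads to fibrosis, so no uninjured liver enters the comparison. POFUT1 is the enzyme that puts O-linked fucose on EGF-like repeats of secreted and surface proteins such as the Notch receptors, and the study asked through which genes it acts on LSECs and on hepatic stellate cells. The labels used here give no strain, age, sex, Cre driver or dose, and do not say whether a library is 1 mouse or a pool. They name liver and LSECs as the source, whereas the extraction text names heart ventricles.

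Laminar flow bends and pulls on the endothelial surface, and a kinase cascade that ends in MEF2 factors then switches on Klf2 and Klf4. These Krüppel-like zinc finger factors raise genes of a quiet, anticoagulant and dilating endothelium, Nos3 among them, and hold back inflammatory genes and Edn1. In the sinusoid, nitric oxide from NOS3 relaxes the neighbouring stellate cells and endothelin from Edn1 contracts them, so the pair sets the tone of the vessel. Klf6 is a relative that many cell types induce after injury. Klf2, Klf4 and Klf6 are also known to respond quickly when tissue is taken apart into cells.

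In the RefSeq annotation of GRCm38.p6, the assembly that the name mm10 in the labels stands for, the genes lie apart. Klf2 (ENSMUSG00000055148) is at chr8:72319062-72321654, Klf4 (ENSMUSG00000003032) at chr4:55527137-55532475 and Nos3 (ENSMUSG00000028978) at chr5:24364816-24384474. Klf6 (ENSMUSG00000000078), at chr13:5861489-5870393, shares its chromosome with Edn1 (ENSMUSG00000021367), at chr13:42301476-42307990, and 36.4 Mb lie between them. The intervals are whole genes with introns, and the counts are reads assigned to each gene.

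Sequencing depth was even, with 17918834 counts in KO1 and 17724765 in KO3, against 17464769 in CTL1 and 17801587 in CTL2. The libraries are called by their column names. All 5 genes passed the filter on low counts, and the scarcest value was 380 reads of Edn1 in KO3. The table gives identifiers without symbols. Pofut1, the markers of LSECs and of other liver cells, the immediate early genes and the remaining members of the flow, nitric oxide and endothelin pathways were therefore not analysed here, and their part in the results below was not tested. The spread was unequal, with a biological coefficient of variation over all tested genes of 12.1% in P1KO and 3.23% in CTL.

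All 5 genes read lower in both P1KO libraries than in either CTL library. Of these, 4 passed the test as lower in P1KO, namely Klf2, Klf4, Nos3 and Edn1, and Klf6 did not pass. The test was edgeR's quasi-likelihood F-test on counts, with Benjamini-Hochberg adjustment over 15510 genes and a threshold of 0.05. Over all tested genes 19.5% were called, and 9.84% were called lower. Groups that did not overlap were common, at 62.6% of tested genes, with P1KO lower at 32.1%, so the separation of the libraries alone says little. In these bulk samples, fewer cells that carry a transcript and less of it per cell cannot be told apart.

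**Figure D1:**
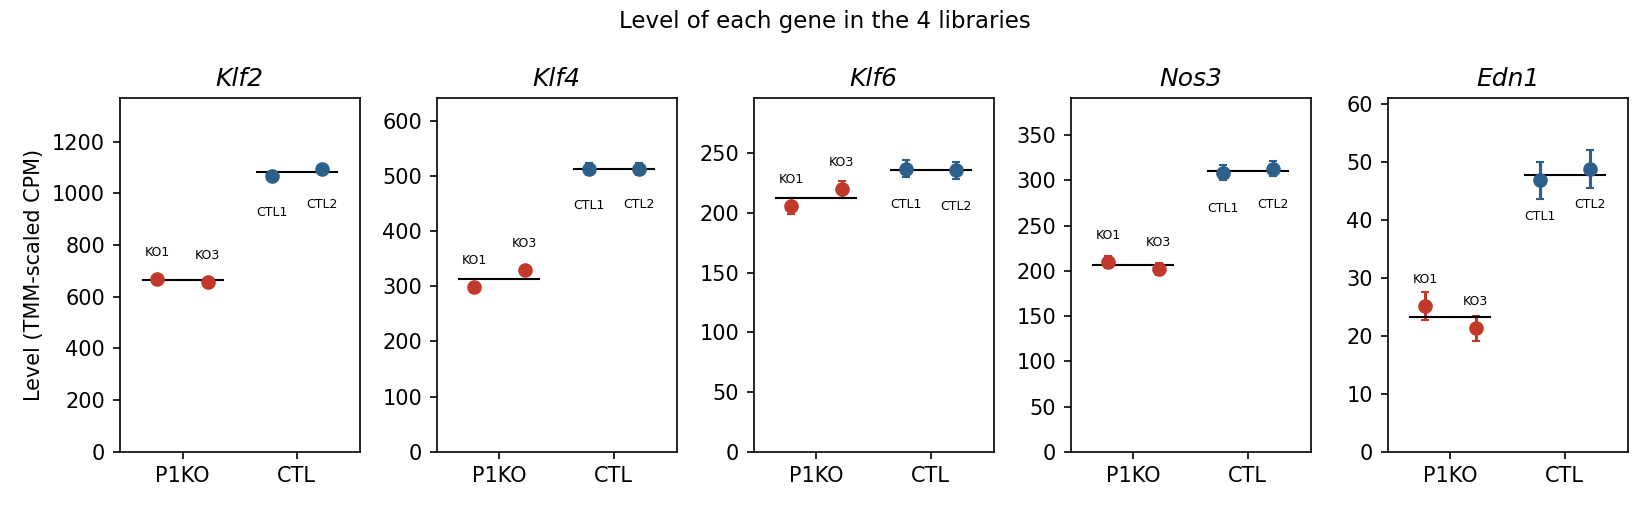
Level of each gene in TMM-scaled CPM, the gene's reads after scaling to library size (vertical axis from 0, a scale of its own per gene) in the P1KO libraries, in red, and the CTL libraries, in blue. Black lines are group means and whiskers are 95% counting error only. Klf2, Klf4, Nos3 and Edn1 stand clearly below CTL in both P1KO libraries, whereas the Klf6 values lie close together.

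Klf2, the factor most tightly tied to laminar flow in endothelium, had 11793 reads in KO1 and 11715 in KO3, against 18716 in CTL1 and 19551 in CTL2. Scaled to library size with edgeR's TMM factors, and given as CPM (reads of the gene at a common library size), that is 670.1 and 658 CPM in P1KO, against 1066 and 1095 CPM in CTL. The P1KO libraries differed by 1.78% and the CTL libraries by 2.69%, so the gap between the groups was far wider than that within either. The mean was 664 ± 8.44 CPM in P1KO and 1080.25 ± 20.3 CPM in CTL (SD, n = 2 each). Klf2 fell by 0.70 on the log2 scale, with a 95% interval of -0.81 to -0.59, and P1KO had 38.5% less of it (edgeR adjusted p = 0.000177). Klf2 is a highly expressed gene in these cells: 99.3% of tested genes had a lower level in CPM.

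Klf4, which shares much of its program with Klf2 in endothelium, fell by nearly the same amount. It had 5250 reads in KO1 and 5853 in KO3, against 8996 in CTL1 and 9158 in CTL2. The levels were 298 and 329 CPM in P1KO, against 512 and 513 CPM in CTL. Here the P1KO libraries were further apart than the controls, since KO3 read 10.2% above KO1, which is 5.12 times the counting error of that difference. The mean was 314 ± 21.6 CPM in P1KO and 513 ± 0.277 CPM in CTL (SD, n = 2 each). The CTL libraries differed by 0.0765%, which is 0.0515 times the counting error of that difference. A CTL SD below the counting error does not measure how far controls vary. The log2 fold change was -0.71, with a 95% interval of -0.85 to -0.57, or 38.8% less in P1KO (edgeR adjusted p = 0.000462).

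Klf6, the injury-induced relative, read only slightly lower. It had 3621 reads in KO1 and 3911 in KO3, against 4160 in CTL1 and 4209 in CTL2. The levels were 206 and 219.7 CPM in P1KO, against 237 and 236 CPM in CTL. KO3 read 6.79% above KO1 and 6.76% below CTL2, so the groups did not overlap but the gap between them was as narrow as that between the P1KO libraries. The CTL libraries differed by 0.536%, which is 0.246 times the counting error of that difference. Their SD therefore does not measure how far controls vary. The means were 213 ± 9.88 CPM in P1KO and 236 ± 0.898 CPM in CTL (SD, n = 2 each), a log2 difference of -0.15 that missed the threshold (edgeR adjusted p = 0.11, unadjusted p = 0.0319). Its 95% interval, -0.29 to -0.02, does not reach the change of Klf2 or Klf4. Without KO1 Klf6 was at -0.10 and without KO3 at -0.20. It passed in each of these fits, but their spread came from the CTL pair alone and calls were common over the whole table.

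Nos3 encodes the endothelial nitric oxide synthase. It had 3697 reads in KO1 and 3593 in KO3, against 5419 in CTL1 and 5586 in CTL2. That gives 210.1 and 202 CPM in P1KO, against 309 and 313 CPM in CTL. The P1KO libraries were 3.91% apart and the CTL libraries 1.34% apart, both small beside the difference between the genotypes. The mean was 206 ± 5.81 CPM in P1KO and 311 ± 2.92 CPM in CTL (SD, n = 2 each). The gap between the CTL libraries was 0.696 times its counting error, so the CTL SD does not measure how far controls vary. Nos3 fell by 0.59 on the log2 scale, with a 95% interval of -0.72 to -0.47, which is 33.7% less in P1KO (edgeR adjusted p = 0.000556).

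Edn1, the precursor of the vasoconstrictor endothelin-1, showed the deepest fall of the 5 genes in the fit to all libraries. It had 443 reads in KO1 and 380 in KO3, against 822 in CTL1 and 872 in CTL2. The levels were 25.2 and 21.3 CPM in P1KO, against 46.8 and 48.8 CPM in CTL. KO3 read 15.2% below KO1, 2.36 times the counting error of that difference, and both lay far below the controls. The mean was 23.3 ± 2.70 CPM in P1KO and 47.8 ± 1.42 CPM in CTL (SD, n = 2 each). The CTL libraries differed by 4.29%, or 0.863 times the counting error, so here too the CTL SD does not measure how far controls vary. Edn1 fell by 1.04 on the log2 scale, with a 95% interval of -1.27 to -0.81, which is 51.4% less in P1KO (edgeR adjusted p = 0.000624). The messenger RNAs of the dilator's enzyme and of the constrictor's precursor were thus both lower in P1KO.

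The calls rest on how close the CTL libraries were to each other, and no label says that these are separate mice. Without CTL1, Klf2 stayed just inside the threshold (edgeR adjusted p = 0.0495), whereas Edn1 (0.0541), Klf4 (0.0647) and Nos3 (0.0647) fell just outside it. Without CTL2, all 4 missed it, at adjusted p = 0.0538 for Klf2, 0.0613 for Edn1, 0.0653 for Klf4 and 0.068 for Nos3. In these fits the whole table gave few calls, 0.832% of tested genes without CTL1 and 0.774% without CTL2, against 34.8% without KO1 and 33.6% without KO3. The sizes moved far less than the p-values. Over the 4 fits that leave out a library, the log2 fold change lay between -0.73 and -0.69 for Klf2, -0.78 and -0.64 for Klf4, -0.62 and -0.56 for Nos3, and -1.16 and -0.93 for Edn1. Tested against a minimum change of 1.5-fold, an alternative chosen after seeing the data, only Edn1 of the 5 passed (edgeR adjusted p = 0.0182), in a test that called 1.74% of genes.

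**Figure D2:**
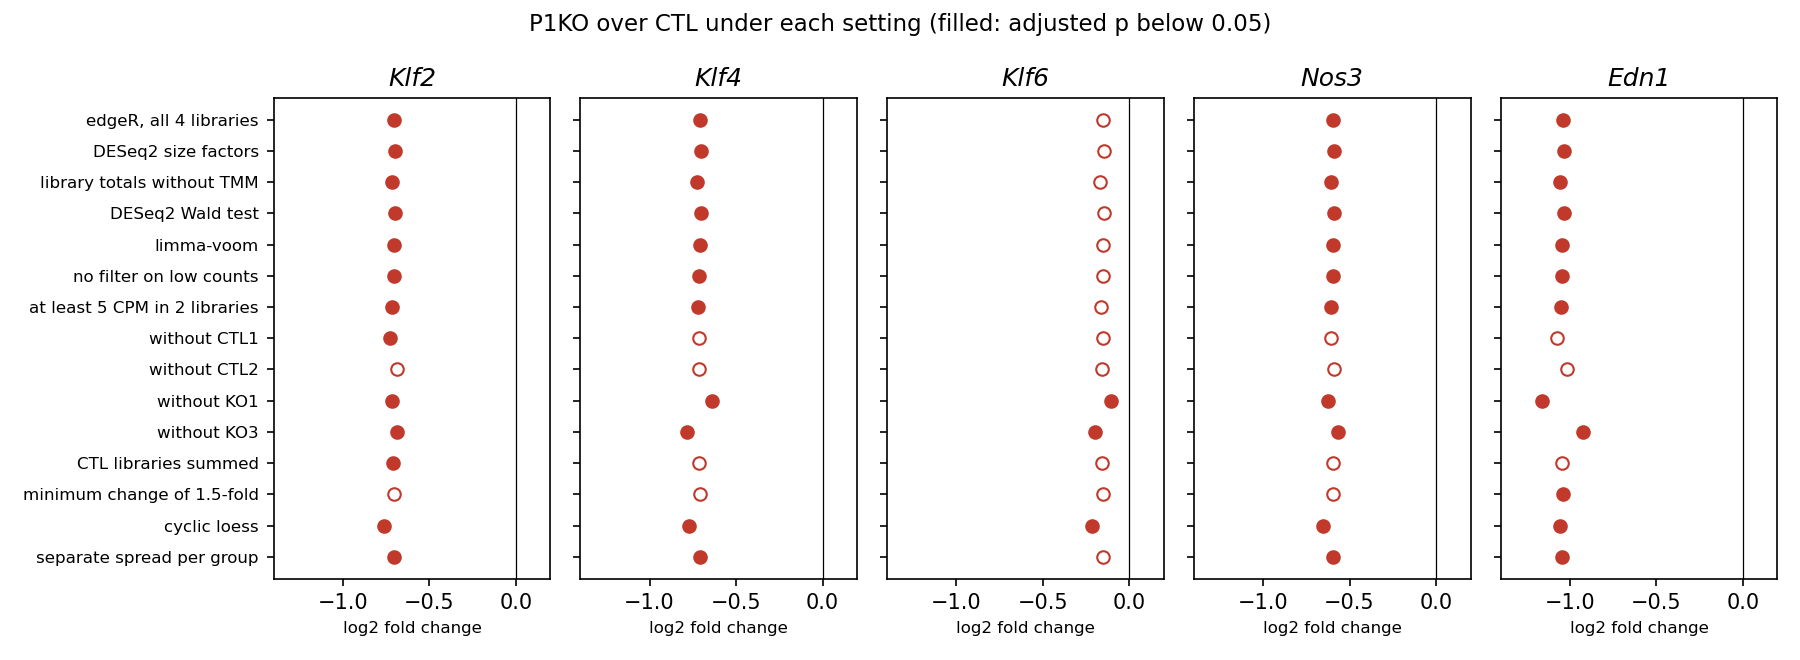
The log2 fold change of P1KO over CTL (horizontal axis) for each gene under the fit to all 4 libraries and 14 alternatives (rows), filled where the adjusted p was below 0.05 and open where it was not. All points lie left of 0, and the open points of Klf2, Klf4, Nos3 and Edn1 are in the fits without a CTL library, with the CTL libraries summed or against a minimum change.

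Set among all genes, the 4 called genes stand toward the low end of the fold changes without being extreme. Of the 15510 tested genes, 4.50% had a lower log2 fold change than Edn1, 9.34% than Klf4, 9.50% than Klf2, 11.9% than Nos3 and 33.4% than Klf6. Scarce genes scatter more, so the same was counted among the 5668 genes at least as abundant as Edn1. There, 1.46% had a lower log2 fold change than Edn1, 3.32% than Klf4, 3.39% than Klf2, 4.38% than Nos3 and 18.1% than Klf6. In that class 11.6% of genes were called lower. Klf2, Klf4, Nos3 and Edn1, 4 of the 5, were called and at least 1.5-fold lower, as were 5.98% of all tested genes and 4.32% of the abundant class. The 5 genes were not drawn at random from either class, and they were chosen with earlier results of these data known. These shares therefore describe the place of the 5 genes and are no test.

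**Figure D3:**
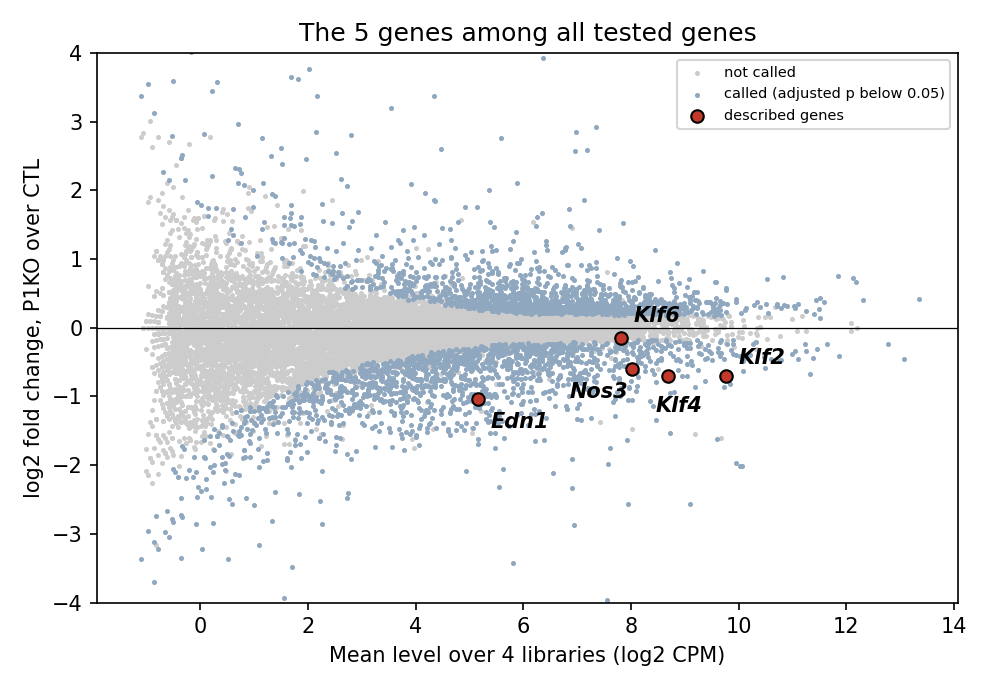
Each tested gene by its mean level over the 4 libraries (log2 CPM, horizontal) and its log2 fold change of P1KO over CTL (vertical), with called genes in blue, others in grey and the 5 described genes in red. The vertical axis ends at -4 and 4, which leaves out 21 genes. Klf2, Klf4 and Nos3 lie at high levels below most of the grey genes not called, though some grey genes at such levels lie lower still. Edn1 lies lower at a moderate level, and Klf6 lies near 0.

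A ratio of the reads of a pair of genes within a library does not depend on how libraries are scaled, and gene length cancels when the ratio is compared between libraries. The 5 genes form 10 such pairs. For each Klf6 read there were 3.26 reads of Klf2 in KO1 and 2.995 in KO3, against 4.50 in CTL1 and 4.65 in CTL2. The Klf4:Klf6 ratio was 1.45 and 1.497 in P1KO, against 2.16 and 2.18 in CTL. Relative to Klf6, then, Klf2 and Klf4 were lower in each P1KO library, by a factor of 0.683 and 0.679 in the group means of the log ratio. Nos3:Klf6 was 1.02 in KO1 and 0.919 in KO3, against 1.30 in CTL1 and 1.33 in CTL2, and Edn1:Klf6 was 0.122 and 0.0972 in P1KO, against 0.198 and 0.207 in CTL.

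Between Klf2 and Klf4 the proportion did not separate the genotypes. The Klf4:Klf2 ratio was 0.445 in KO1 and 0.500 in KO3, against 0.481 in CTL1 and 0.468 in CTL2, so the P1KO libraries enclosed the controls. This was the 1 pair of the 10 in which the groups overlapped. Nos3:Klf4 was barely separate, at 0.704 in KO1 and 0.614 in KO3, against 0.602 in CTL1 and 0.610 in CTL2. The share of all gene pairs without overlap was not computed, so the count of separate pairs says little. Edn1 was lower relative to Nos3, at 0.120 and 0.106 Edn1 reads per Nos3 read in P1KO, against 0.152 and 0.156 in CTL, a ratio of 0.732 between the genotypes. Nos3:Klf2 was slightly higher in P1KO, at 0.313 and 0.307, against 0.290 and 0.286 in CTL. With 2 libraries against 2, a two-sided exact permutation test cannot go below p = 0.333, so the ratios are given as values without a test.

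**Figure D4:**
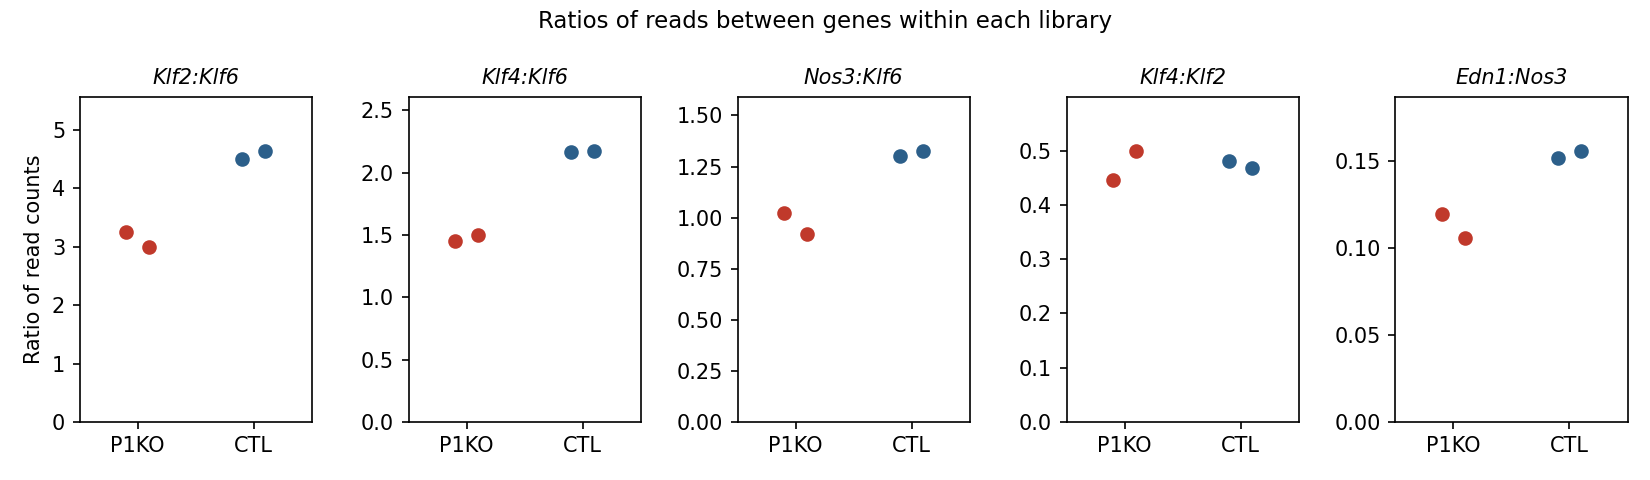
Reads of one gene per read of another within each library (vertical axis from 0), with P1KO libraries in red and CTL libraries in blue. The ratios of Klf2, Klf4 and Nos3 to Klf6 and of Edn1 to Nos3 are lower in both P1KO libraries, and Klf4:Klf2 overlaps between the groups.

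Summed, the 5 genes held 0.138% of all counts in KO1 and 0.144% in KO3, against 0.218% in CTL1 and 0.221% in CTL2. Most of these reads came from Klf2 and Klf4. Levels per unit of length were not computed, since transcript lengths were not used here, so no order of levels between the 5 genes is given.

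The likeness of patterns was measured as the distance between log2 CPM profiles over the 4 libraries, each centred on its own mean, among the 7755 genes of at least median abundance. Over 4 libraries such a profile holds only the genotype difference and the gaps within each pair. Klf2 and Nos3 were the nearest of the 5 to each other, 0.11 apart, and Nos3 ranked 46 among the 7754 genes compared with Klf2. Klf2 was also the member nearest to Klf4, at rank 25, and to Edn1, at rank 173. For Klf6 the nearest member was Nos3, at rank 6234. Among the genes compared, the smallest distances were those of genes whose symbols were not matched here, with ENSMUSG00000027459 at a distance of 0.01 from Klf6 and ENSMUSG00000044037 at 0.01 from Edn1.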

How the data were processed

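The authors deposited 1 table of raw counts, whole-number reads per Ensembl gene in 4 columns (4 used, 0 left out). HISAT2 2.0.5 and featureCounts 1.5.0-p3, beside CASAVA and fastp, are named with build mm10 in the submitters' processing notes. Annotation release and strand setting: not given in the sources used here. Thus reads of overlapping or antisense genes may be included. The column KO3 carries a number found in no sample title and was placed in P1KO without a sample number. Whether replicates are separate mice is not in the labels, so p-values reflect only the spread among these libraries, possibly a technical one.

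Counts were filtered with filterByExpr, scaled with TMM and tested with edgeR 4.0.16 in R 4.3.3, P1KO against CTL with no covariate. Levels are CPM on TMM-scaled totals. The SE of a fold change was derived from its F statistic, and the 95% interval from this SE and the fit's total degrees of freedom. For likeness, a prior count of 2 entered the log2 CPM. Counting errors treat reads as independent. The script was tested on simulated data. Alternatives were library totals, DESeq2 1.42.0 and its size factors, 2 further filters, voom in limma 3.58.1, each library left out, and 4 chosen after seeing the data.

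The symbols of the 5 genes come with the rule that chose them, and positions were looked up by symbol in RefSeq. The reference table has no Ensembl identifiers, and 0 of 54532 were matched to it. The lists of pathway genes and cell markers, the naming of called genes in them and the promoter motifs were therefore not analysed here. The members and lists were chosen with earlier results of these data known. The rule for named genes was the 5 genes, called genes of the lists and the 3 nearest profiles per gene, of which the 2 closest identifiers are printed.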

Additional observations from a re-analysis of the deposited data

How the results depend on the processing

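Of 14 alternatives, the call of Klf2 as lower in P1KO held in 12, of Edn1 in 11, and of Klf4 and Nos3 in 10 each. Klf6 passed in 3 of them. The fold change of all 5 genes was below 0 in every alternative, which says little, since their groups did not overlap. DESeq2 size factors, library totals, DESeq2, limma-voom, both filters and a separate spread per group changed no call of the 5 genes. After summing the CTL libraries, an alternative chosen with the data seen, Klf4 (-0.71, edgeR adjusted p = 0.0619), Nos3 (-0.60, 0.0626) and Edn1 (-1.05, 0.0542) lost their call and Klf2 kept it (0.0496). Against a minimum change of 1.5-fold, also added, Klf2 (-0.70, adjusted p = 0.142), Klf4 (-0.71, 0.244) and Nos3 (-0.59, 1) lost theirs. With cyclic loess, likewise added and calling 2732 of the 15510 tested genes, Klf6 passed at -0.21 (limma adjusted p = 0.0415). The cause was not tested. Leaving out 1 library gave -0.73 to -0.69 for Klf2, -0.78 to -0.64 for Klf4, -0.20 to -0.10 for Klf6, -0.62 to -0.56 for Nos3 and -1.16 to -0.93 for Edn1. Where a group was down to 1 library, that library was assumed to be as variable as the other group.

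The count of genes called, 3027 in all, was 1633 without a filter, 152 with the CTL libraries summed, 270 against 1.5-fold, and 120 to 5391 with 1 library left out. The log2 ratios between genes were recomputed with each library left out for 6 of the 10 pairs. In groups of 2 the resulting move is set by the gap between the replicates, so it says nothing about stability. No paired analysis was possible because the titles hold no knockout number 3, and columns of both groups share only number 1. Depth limited Edn1 most, with a counting error of 5.13% in KO3.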
